A study of Chlorocebus sabaeus with 32 samples.

Results

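Among 33994 gene rows counted in vervet monkey hippocampus, 48 were named for transfer RNA (tRNA) genes. They were taken by name alone: TRNA, the one-letter code of an amino acid, a hyphen and the anticodon, so that TRNAY-GUA is the tyrosine tRNA with anticodon GUA. A total of 47 of the 48 had at least 1 count, and their counts were described across all 32 libraries and then between groups of library titles.

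A tRNA is the adaptor that reads a codon with its anticodon and brings the matching amino acid to the ribosome. RNA polymerase III makes it as a precursor, which is trimmed at both ends, given a CCA tail, modified at many bases and charged by an aminoacyl-tRNA synthetase. Most anticodons are encoded by several near-identical gene copies, and the short, folded and heavily modified mature molecules are poorly captured by library preparations made for long RNA. In mouse brain, an arginine tRNA with anticodon UCU is known for a copy expressed mainly in the nervous system.

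The animals were Chlorocebus sabaeus, all labelled as under 1 year old, and the study set out to examine how the hippocampal transcriptome changes during development. Total RNA was depleted of ribosomal RNA and made into stranded libraries. No allele, treatment, sex or exact age was given, and there was no treated group. Titles fell into 3 blocks by their opening digits, A with 14 libraries, B with 16 and C with 2. A second number in the title was under 20000 in all of block A and in 7 libraries of block B, called low-number here. It was 20000 or more in the other 9 libraries of block B, called high-number, and in both of block C. What these digits mean is not stated in the labels, so the comparisons below are between sets of titles. Each title had its own identifier and each library was taken as 1 animal. P-values therefore measure only the spread between these samples.

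Gene counts per library ran from 9347635 to 19673621. Levels are given as counts relative to library size after scaling by trimmed mean of M-values (CPM), without division by length. Hippocampal markers were present, with PROX1 of dentate granule cells at 122 ± 43.3 CPM, CAMK2A of excitatory neurons at 2147 ± 524 CPM and SLC1A2 of astrocytes at 2791 ± 687 CPM (SD, n = 32). PROX1 ran from 20.1 to 186 CPM, with its lowest value in a low-number library of block B. The tRNA rows took 14965 of 513805922 gene counts, or 29.1 CPM before scaling. Because the sample is whole tissue, fewer cells of a type and less RNA per cell cannot be told apart in any of these values.

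The cysteine row TRNAC-GCA was the highest, with 1510 counts and between 27 and 68 per library (median 48.5). It was followed by the serine rows TRNAS-AGA (908 counts, 7 to 70 per library) and TRNAS-GCU (856 counts, 11 to 53). TRNAY-GUA had 818 counts, the histidine row TRNAH-GUG 807 and the glycine row TRNAG-GCC 659. These 6 rows and the isoleucine row TRNAI-AAU (622), the glycine row TRNAG-CCC (526) and the arginine row TRNAR-CCU (524) were the 9 with at least 500 counts. The lysine row TRNAK-CUU (469), the phenylalanine row TRNAF-GAA (428) and the threonine row TRNAT-AGU (424) completed the 12 highest, which held 57.1% of all tRNA counts. The methionine row TRNAM-CAU, whose anticodon serves both initiation and elongation, had 279.

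The remaining rows were thinly covered. The median row had 205 counts over the 32 libraries, against 1060 for all gene rows, and 32.8% of gene rows lay at or below that level. Counts were found in every library for 24 rows, and 11 rows, the alanine row TRNAA-GGC among them, had fewer than 100 counts in all. TRNAA-GGC had 0 counts in every library, which allows up to 3 counts, or 0.152 to 0.321 CPM depending on the library. This floor and the intervals below cover counting error only. Another 2 rows, TRNASTOP-UCA with 33 counts and TRNASTOP-UUA with 55, carry no amino acid letter and were not among the 48; UCA is the anticodon of selenocysteine tRNA.

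**Figure D1:**
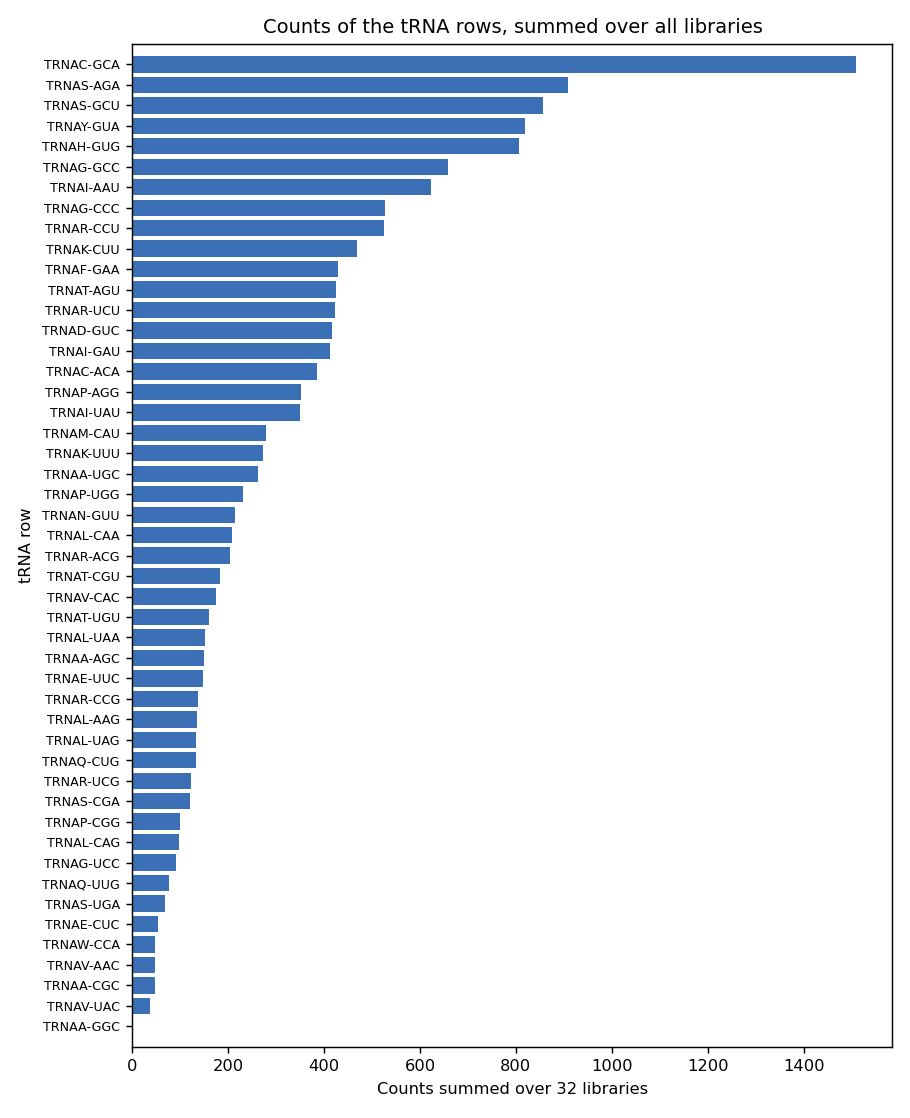
Counts of each of the 48 tRNA rows summed over the 32 libraries (horizontal axis, counts; vertical axis, rows in order of their sum). TRNAC-GCA stands at 1510 counts, 9 rows reach 500 and TRNAA-GGC has 0.

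By amino acid, serine rows held 13.03% of the tRNA counts over 4 rows and cysteine rows 12.7% over 2. Arginine (9.42%), isoleucine (9.25%) and glycine (8.53%) came next. The single tryptophan row TRNAW-CCA was at the other end, with 48 counts or 0.321%. The rows do not follow gene copy number closely. In the RefSeq gene table of the assembly mChlSab1.0.hap1, 424 tRNA entries carried the symbol of 1 of 47 rows, while TRNAA-GGC had none. Across those 47 rows the number of entries and the summed count had a Pearson's r of 0.34 and a Spearman's rho of 0.30. This describes rows that share the same libraries, and the assembly behind the counts is not given in the sources used here. TRNAN-GUU, for asparagine, had 19 entries and 213 counts, while TRNAR-CCU had 5 entries and 524 counts.

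Summed over all tRNA rows, a library had 221 to 805 counts, with a median of 435. The summed level was 28.9 ± 7.24 CPM (SD, n = 32). In the libraries of block A it ran from 19.9 to 29.4 CPM with a median of 26.1 (25.7 ± 2.98, n = 14). In the low-number libraries of block B it ran from 19.5 to 26.7 CPM with a median of 22.6 (23.5 ± 2.52, n = 7).

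The high-number libraries of block B lay higher, from 24.7 to 45.5 CPM with a median of 37.2 (36.9 ± 6.34, n = 9). The ratio of the means, high-number to low-number, was 1.57. Of the 9 high-number libraries, 8 were above every low-number library of block B and above every library of block A. The exception was replicate 29 at 24.7 CPM. Its 385 counts give 23.7 to 28.97 CPM before scaling (exact Clopper-Pearson 95% interval), close to the 23.9 to 28.8 of replicate 21, the highest low-number library. Without replicate 29 the high-number mean was 38.4 ± 4.72 CPM with a lowest value of 29.999, in replicate 30. Its interval before scaling, 27.4 to 32.8 CPM, overlapped the 25.5 to 30.5 of replicate 2, the highest library of block A. Of the 2 libraries of block C, replicate 31 had 43.9 CPM and replicate 32 had 26.04 CPM, which lay within the low-number range of block B.

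In block B, counting error alone would give a coefficient of variation of 5.33% for the mean low-number sum and 4.08% for the mean high-number sum. The observed coefficients were 10.7% and 17.2%. Rows with a count numbered 33 to 45 in low-number and 45 to 47 in high-number libraries of block B, and 39 to 47 in block A. The lowest, 33, was in replicate 16, which had the fewest gene counts of block B (11403860). The sum is over the chosen rows and was given no test.

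**Figure D2:**
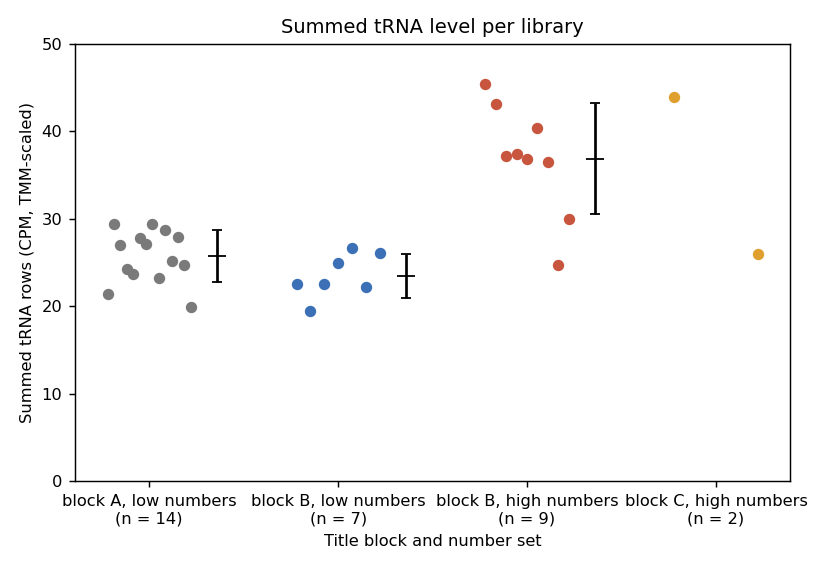
Summed tRNA level of each library (vertical axis, CPM) by title block and number set (horizontal axis), with 1 point per library and the mean ± SD beside the groups of more than 2. In the high-number libraries of block B, 8 of 9 points lie above all points of block A and above all low-number points of block B, and replicate 29 at 24.7 CPM does not.

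Row by row, the high-number libraries of block B were compared with the low-number ones by edgeR's quasi-likelihood test over all rows. No row of any kind passed a Benjamini-Hochberg adjusted p of 0.05 (0 of 21488 tested, 0%). In that fit 18 tRNA rows passed the count filter and 10 had an unadjusted p under 0.05, all higher in high-number libraries, against 14.1% of all rows tested. A row can pass the filter through the group in which it is high, so all rows were also fitted without it. Of the 47 rows with counts, 43 then had a log2 difference above 0 and 4 below 0. Their median was 0.82, against 0.01 over all 32748 rows, of which 51.0% were above 0. At an unadjusted p under 0.05, 22 of the 47 were higher, against 5.52% of all rows, and 0 were lower. DESeq2, which gave an adjusted p to 17738 rows and 4 tRNA rows, called 198 rows (1.12%) and 1 tRNA row.

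TRNAY-GUA had the second smallest p of all rows in this comparison. In low-number libraries it ran from 0.679 to 1.34 CPM with a median of 1.08, and in high-number libraries from 1.16 to 3.31 CPM with a median of 2.44. All 9 high-number libraries were above the low-number median, but the lowest, replicate 29 at 1.16 CPM, fell among the low-number values. The log2 difference was 1.23 ± 0.21 (SE), with an edgeR adjusted p of 0.0717. DESeq2 gave an adjusted p of 0.000552. Without replicate 29 edgeR called 2 rows in all, both for tRNA: TRNAY-GUA at 1.31 (adjusted p 0.00989) and TRNAK-CUU at 1.49 (adjusted p 0.00783). Without replicate 26, a low-number library, it called 21 rows, with TRNAY-GUA at an adjusted p of 0.0388.

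TRNAK-CUU ran from 0.285 to 0.639 CPM in low-number libraries (median 0.575) and from 0.385 to 1.80 CPM in high-number libraries (median 1.57). Replicate 29, at 0.385 CPM, was again the only high-number library among the low-number values, and the next lowest was at 1.17 CPM. The log2 difference over all 16 libraries was 1.37 ± 0.26 (edgeR adjusted p 0.111). The other lysine row, TRNAK-UUU, had a difference of 1.00 ± 0.34 in the fit without a filter.

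Within block B the groups did not overlap at all for 3 tRNA rows, TRNAR-CCU, TRNAN-GUU and TRNAR-UCG. For each, every high-number library of block B was above every low-number one of block B. Among all 32748 rows with a count in block B, 9 rows (0.0275%) had this pattern and 23 (0.0702%) had the opposite one, which no tRNA row showed. TRNAR-CCU ran from 0.319 to 0.913 CPM and from 1.03 to 2.11 CPM (log2 difference 1.08 ± 0.20, edgeR adjusted p 0.111). In block B, TRNAN-GUU ran from 0 to 0.359 CPM in low-number libraries, which is 0 to 5 counts, and from 0.378 to 1.35 CPM in high-number libraries, which is 6 to 21 counts. TRNAR-UCG, chosen after its values were seen, had 1 or 2 counts in each low-number library of block B and 5 to 14 in each high-number library of block B. It had 1 to 6 counts in block A, and 8 and 3 in the libraries of block C. Those 2 rows were under the count filter of this comparison, and without it their log2 differences were 2.09 ± 0.40 and 1.75 ± 0.35 (edgeR adjusted p 0.150 for TRNAN-GUU). Block A overlapped the high-number libraries of block B in all 3 rows, reaching 1.61 CPM for TRNAR-CCU, 0.488 CPM for TRNAN-GUU and 0.346 CPM for TRNAR-UCG.

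**Figure D3:**
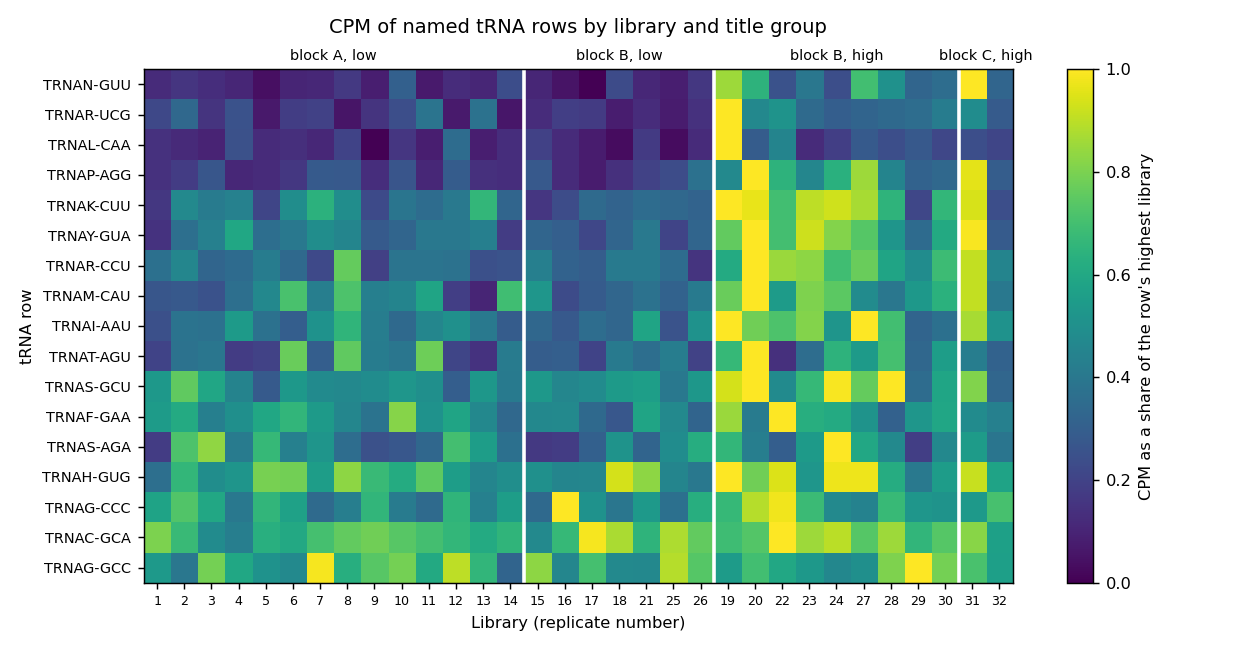
Level of the 17 named tRNA rows (vertical axis, ordered by the difference between number sets) in each library (horizontal axis, replicate number, grouped by title block and number set), coloured by CPM as a share of the row's highest library. TRNAN-GUU at the top is darkest in the block A and low-number libraries, while TRNAC-GCA and TRNAG-GCC at the bottom show no step between groups.

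Rows for the same amino acid did not always lie on the same side of 0. The proline rows all had positive differences in the fit without a filter, 1.46 ± 0.31 for TRNAP-AGG, 1.31 ± 0.46 for TRNAP-UGG and 0.80 ± 0.50 for TRNAP-CGG. For isoleucine, TRNAI-AAU had 0.86 ± 0.26 and TRNAI-UAU 0.93 ± 0.28, while TRNAI-GAU had -0.41 ± 0.28. For arginine, TRNAR-CCU and TRNAR-UCG were the non-overlapping rows above, whereas TRNAR-UCU, whose anticodon is that of the brain-enriched mouse tRNA, had -0.03 ± 0.22. Summed by amino acid, the high-number mean exceeded the low-number mean 4.46-fold for asparagine, 2.60-fold for proline, 2.49-fold for aspartate, 2.41-fold for lysine and 2.37-fold for tyrosine. The ratio was 1.02 for cysteine and 1.13 for glycine. These differences between rows were not tested.

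The most abundant row was among those with little difference. TRNAC-GCA ran from 1.94 to 4.05 CPM in low-number libraries (median 3.13) and from 2.70 to 4.11 CPM in high-number libraries (median 3.02), with a log2 difference of 0.08 ± 0.14 (edgeR adjusted p 0.843). It made up 13.3% ± 3.32 of the tRNA counts in low-number libraries and 9.07% ± 1.75 in high-number ones. TRNAG-GCC ran from 0.916 to 1.77 CPM and from 0.919 to 1.99 CPM, with a difference of 0.00 ± 0.20 (edgeR adjusted p 0.995) whose sign depended on the scaling. Leaving TRNAC-GCA out of the sum changed the difference between the group means from 13.4 to 13.2 CPM.

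The 4 rows with a negative difference were TRNAI-GAU, TRNAC-ACA, TRNAV-CAC for valine and TRNAR-UCU. In the gene table of mChlSab1.0.hap1, 66 of the 424 tRNA entries (15.6%) overlapped the span of another gene on either strand. Every entry did so for 2 rows, TRNAI-GAU and TRNAC-ACA, with 4 entries each, and for 3 of 5 entries of TRNAR-UCU and 3 of 12 of TRNAV-CAC. The 21 rows with no such entry all had differences above 0, from 0.05 to 1.59 with a median of 0.87. The 24 rows with some such entries ran from -0.09 to 2.09 with a median of 0.65, and 22 were above 0. Their highest was TRNAN-GUU, with 3 such entries of 19. The genes that overlap TRNAC-ACA in that table were MSRA, a methionine sulfoxide reductase gene, with a log2 difference of 0.07 ± 0.08, and the pseudogene LOC103227199 with -0.15 ± 0.09. No value is given for a gene overlapping TRNAI-GAU. Reads of a tRNA gene and of an overlapping gene may not be separable, since how the counting treated strand is unknown. The part of these overlaps in the tRNA differences was not tested.

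**Figure D4:**
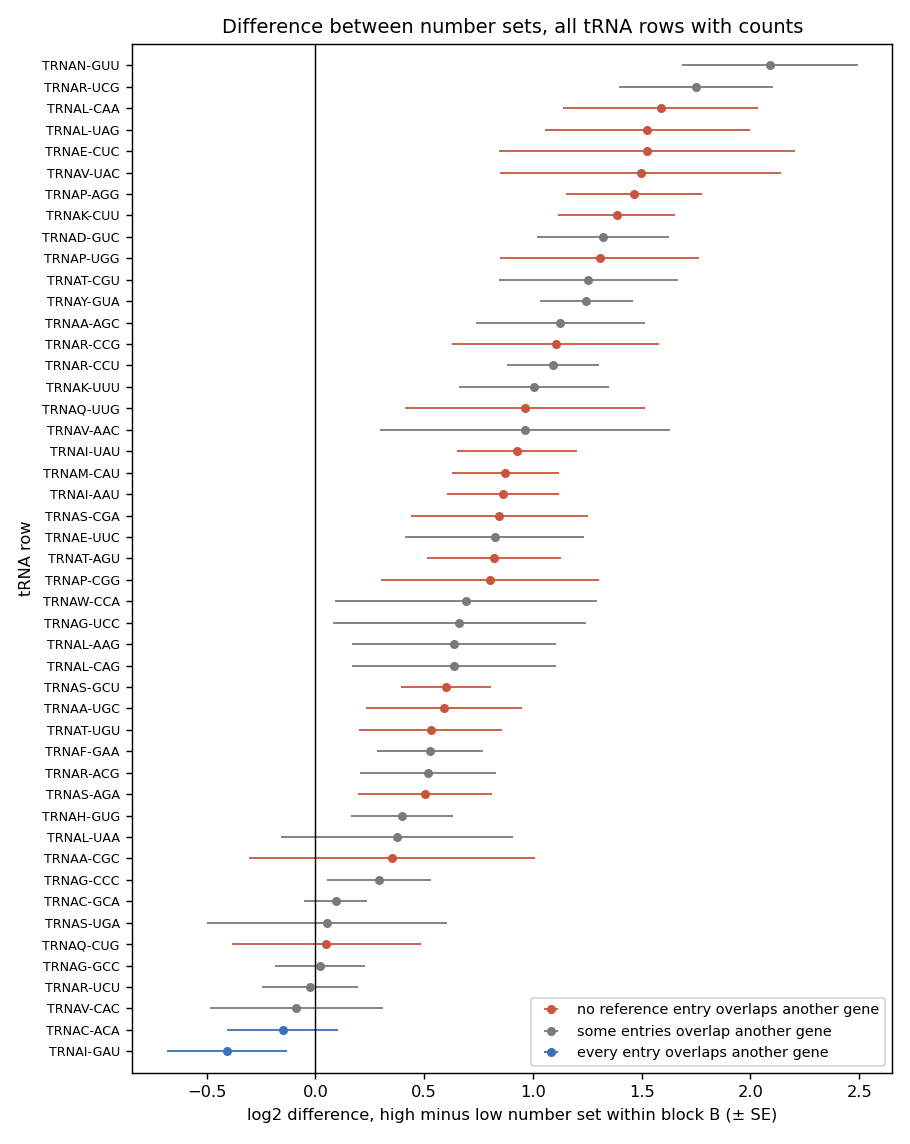
Log2 difference between high-number and low-number libraries of block B for the 47 tRNA rows with counts (horizontal axis; point, estimate without a count filter; line, SE), coloured by how many of the row's reference entries overlap another gene. In all, 43 points lie above 0, and both rows whose every entry overlaps another gene lie below it.

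No cell type marker was called between the same groups, as no row was. The oligodendrocyte markers MBP and MOBP had log2 differences of 0.32 and 0.25 with overlapping ranges. The 3 astrocyte markers lay between -0.03 and 0.19, and both microglial markers between -0.04 and -0.01. Of 5 neuronal markers, SLC17A7 had the largest difference, -0.35, and the striatal and thalamic markers DRD2 and TCF7L2 had -0.31 and -0.35. DRD2 was highest in replicate 16, a low-number library, at 16.1 CPM, against a mean of 5.34 CPM over all libraries. The choroid plexus marker TTR had a mean of 44.5 CPM in high-number libraries, where its median was 0.185 CPM and replicate 22 had 388 CPM. The part of these markers in the tRNA differences was not tested.

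Between blocks A and B, a comparison that shares the 16 libraries of block B with the one above, 31 tRNA rows passed the count filter. edgeR called 2 of them higher in block B and 0 lower at an adjusted p under 0.05. Over all 23977 rows, 12.5% were called and 7.11% were called higher, so the share among tRNA rows was no larger than that background. DESeq2 called 4 higher and 0 lower, against 14.8% of all rows. At an unadjusted p under 0.05, edgeR had 11 tRNA rows higher and 1 lower, TRNAR-UCU at -0.41 ± 0.18, against 27.3% of all rows. Without the filter, 36 of 47 rows had a difference above 0, with a median of 0.31 against 0.00 over all rows.

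TRNAP-AGG rose in block B. It ran from 0.226 to 0.598 CPM in block A (median 0.311) and from 0.156 to 2.05 CPM in block B (median 0.729). The log2 difference was 1.14 ± 0.29 with an edgeR adjusted p of 0.00904, and 13 of 16 libraries of block B were above the block A median. TRNAN-GUU also rose, from a range of 0.0633 to 0.488 CPM (median 0.184) to one of 0 to 1.35 CPM (median 0.388). Its log2 difference was 1.20 ± 0.37 (edgeR adjusted p 0.0290), and 11 of 16 libraries of block B were above the block A median. For both rows the ranges overlapped, and the highest library of block B was a high-number one. Both rows were tested because the count filter took its group size from the 2 libraries of block C. With block C left out, 17 tRNA rows were tested, neither of these among them, and the 1 called was TRNAR-CCU. With block C left out but the same 31 rows kept, an alternative chosen after seeing the data, both were called (edgeR adjusted p 0.00852 for TRNAP-AGG and 0.0291 for TRNAN-GUU).

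Within low-number libraries the difference between blocks did not hold. TRNAP-AGG had a mean of 0.382 CPM in block A and 0.416 CPM in the low-number libraries of block B, and TRNAN-GUU 0.211 and 0.168 CPM. In that subset edgeR tested 17 tRNA rows and called 0, against 5.23% of all rows, and 0 had an unadjusted p under 0.05, against 21.7% of all rows. TRNAP-AGG and TRNAN-GUU did not pass its filter. The summed tRNA level, as block B minus block A, was 5.31 CPM over all libraries of both blocks and -2.20 CPM over low-number libraries, a subset chosen for the sum after seeing the data. Mean levels in low-number libraries of block B exceeded those of block A for 14 of the 47 rows.

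Among the other called or abundant rows, the call for TRNAN-GUU was lost without replicate 19, 27 or 28 (edgeR adjusted p 0.0504 to 0.0525), all high-number libraries. TRNAR-CCU had a log2 difference of 0.61 ± 0.21 (edgeR adjusted p 0.0529) and passed with total gene counts, with all reads counted, with DESeq2, with the share of reads in no feature as a covariate and without the libraries of block C (adjusted p 0.0376 to 0.0492), but not without block C on the same rows (edgeR adjusted p 0.0537). TRNAS-AGA (-0.05 ± 0.22) and TRNAF-GAA (-0.02 ± 0.16) differed by less than their error, and their signs depended on the scaling.

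The table also holds 5 technical rows for reads given to no gene. Rows for low alignment quality and for unaligned reads were 0 in every library. Reads in no feature numbered 57297 for each tRNA count, reads with several alignments 9016 and reads ambiguous between genes 136. A mature tRNA read that fits several copies would fall in the row of several alignments under a counting mode that keeps only unique reads, but the mode used is not given in the sources used here.

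Between number sets in block B, reads in no feature made up 59.1% ± 3.01 in low-number and 55.2% ± 2.71 in high-number libraries (two-sided exact permutation p 0.0191, adjusted over 6 tests 0.0616). Reads with several alignments made up 8.08% ± 1.36 and 9.57% ± 1.10 (exact permutation p 0.0314, adjusted 0.0628). Ambiguous reads made up 0.127% ± 0.00986 and 0.140% ± 0.0103 (exact permutation p 0.0205, adjusted 0.0616). None passed 0.05 after adjustment. Between blocks A and B, permutation p-values for these 3 rows were 0.656, 0.953 and 0.662.

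With high-number and low-number libraries pooled, the summed tRNA level moved with these shares. Over the 32 libraries it had a Pearson's r of -0.58 with reads in no feature, 0.57 with ambiguous reads and 0.45 with reads of several alignments (Spearman's rho -0.57, 0.59 and 0.47). For reads in no feature, r was -0.35 within block A, -0.61 within the low-number and -0.50 within the high-number libraries of block B. Without the 2 libraries farthest from the median share it was 0.11, 0.25 and -0.33, so the relation within block A and within low-number libraries rested on those libraries. For ambiguous reads r in these 3 groups was 0.38, 0.43 and 0.52 (-0.04, -0.15 and 0.33 without the 2 farthest libraries). For reads of several alignments it was 0.09, 0.44 and 0.35 (-0.37, 0.14 and 0.06). With the gene counts of a library r was 0.31 over all 32, and 0.39, 0.67 and 0.36 in the groups (0.17, 0.07 and 0.49). All points share library depth, and these values are descriptions.

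Counted against all reads, technical rows included, the summed tRNA level had a median of 7.58 CPM in low-number (SD 1.05) and 12.9 CPM in high-number libraries of block B (SD 2.39). Within block B, 8 of 9 high-number libraries were again above every low-number one. On this denominator replicate 30, at 10.23 CPM, also fell below the highest library of block A, at 10.25 CPM. With the share of reads in no feature as a term in edgeR's fit, the difference of TRNAY-GUA was 0.89 and that of TRNAK-CUU 1.09, with 6 of 18 tRNA rows at an unadjusted p under 0.05, against 4.29% of all rows. Of the 13 named rows tested, 9 moved nearer to 0 and 4 farther from it. For 6 the difference became at least 1.5 times smaller: 0.09 for TRNAS-AGA (0.48 without the term), 0.26 for TRNAS-GCU (0.58), 0.40 for TRNAT-AGU (0.80), 0.17 for TRNAH-GUG (0.38), 0.54 for TRNAI-AAU (0.84) and 0.94 for TRNAP-AGG (1.45). The edgeR adjusted p was 0.9965 for each of the 13, TRNAY-GUA among them. The part of this share in the tRNA differences beyond that fit was not tested.

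**Figure D5:**
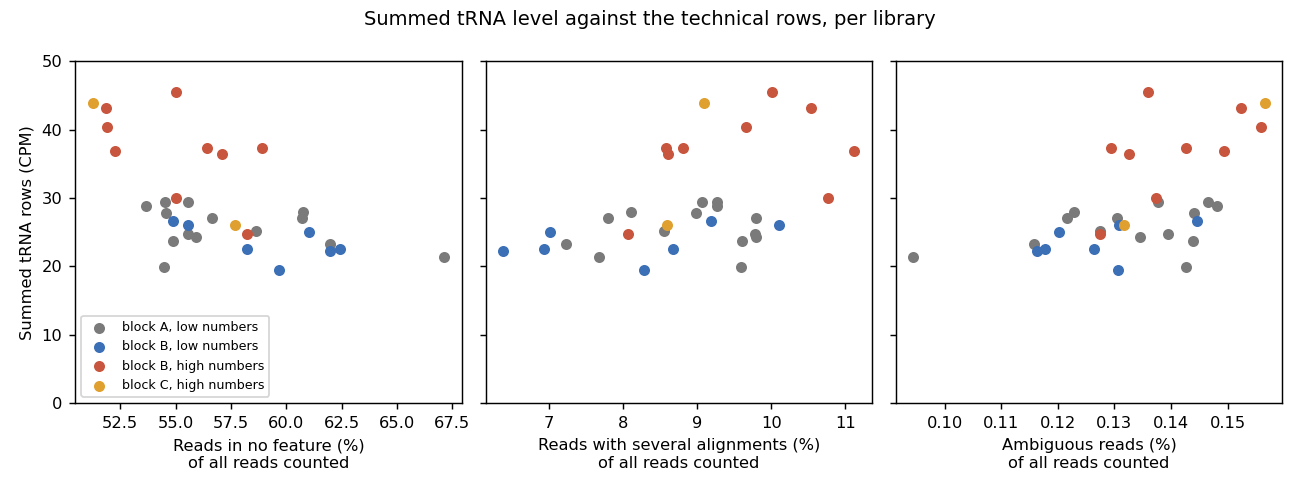
Summed tRNA level of each library (vertical axis, CPM) against the percentage of all reads counted that fell in no feature, had several alignments or were ambiguous (horizontal axes, 3 panels), with 1 point per library coloured by title block and number set. Over all 32 libraries Pearson's r is -0.58, 0.45 and 0.57.

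Genes that make, process, modify and charge tRNA were taken as 4 lists of 118 genes, of which 115 were in the table and all 115 passed the filters. Between blocks A and B, edgeR called 8 higher in block B and 2 lower, against 12.5% of all rows. Scaled by total gene counts or by all reads counted, the split was 13 to 0 and 10 to 0. With 1 library left out the number called ran from 4 to 14, and every called difference was small, at most 0.34 in log2. In low-number libraries 0 genes were called higher and 2 lower, against 5.23% of all rows. Those were TRMT1L (-0.21 ± 0.06, edgeR adjusted p 0.0489) and TYW3, of wybutosine synthesis (-0.26 ± 0.07, edgeR adjusted p 0.0409), so that none of the 10 called over all libraries was called there.

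Of 23 genes for RNA polymerase III and its factors, BRF1, a subunit of the initiation factor TFIIIB, rose from 72.9 ± 4.75 to 79.3 ± 5.98 CPM (log2 difference 0.12 ± 0.04, edgeR adjusted p 0.0475). The polymerase subunit POLR3G fell by 0.21 on the log2 scale (adjusted p 0.0472). In the list for end processing, splicing and export (22 genes), RPP25, a protein of the tRNA-trimming ribonuclease P, rose by 0.34 ± 0.10 (edgeR adjusted p 0.0170). Of 45 base modification genes, 4 were called higher and 1 lower, against 12.5% of all rows called. They were the dihydrouridine synthase DUS4L, the methyltransferase TRMT2A, the deaminase subunit ADAT2, which edits adenosine to inosine in the anticodon, and ALKBH8, which modifies the wobble uridine, with differences of 0.18 to 0.26, and the pseudouridine synthase PUS10, which fell by 0.18. Of 25 synthetases and partners, the glutamine enzyme QARS rose by 0.25 ± 0.05 (edgeR adjusted p 0.00140) and the leucine enzyme LARS by 0.20 ± 0.05 (edgeR adjusted p 0.0153).

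Between number sets, edgeR and DESeq2 each called 0 of the 115 genes, and 15 had an unadjusted p under 0.05 in edgeR, against 14.1% of all rows. List medians of the log2 difference were 0.05 for transcription, 0.09 for processing, 0.05 for modification and 0.10 for charging, against 0.00 over all rows tested. Among the smallest p-values were NARS, which charges asparagine tRNA, at 239.7 ± 31.2 CPM in low-number and 294 ± 45.5 CPM in high-number libraries (0.29 ± 0.10, edgeR adjusted p 0.233), and the RNA ligase RTCB, which joins the exons of spliced tRNA (0.22 ± 0.08, edgeR adjusted p 0.233). SSB, the La protein that binds the ends of new RNA polymerase III transcripts, had 0.18 ± 0.06 (edgeR adjusted p 0.233), and the TFIIIB-like factor BRF2 0.23 ± 0.07 (edgeR adjusted p 0.229). BRF1, the TFIIIB subunit named above, had only 0.02 ± 0.06 (edgeR adjusted p 0.892). Other genes high in their lists by p were lower in high-number libraries. They were ADAT1 of base modification (-0.26 ± 0.10, edgeR adjusted p 0.256) and the polymerase subunit POLR3K (-0.20 ± 0.08, edgeR adjusted p 0.266).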

How the data were processed

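Hippocampal RNA of 32 vervet monkeys was sequenced after ribosomal RNA depletion, per the labels' protocols. The deposited table holds whole-number read counts per gene, with no normalization by the authors, and STAR and HTSeq were used per the submitters' processing notes. Tool versions, genome build, annotation, strand setting and the way a symbol with several gene copies was summed: not given in the sources used here. Titles supplied the blocks and number sets, and replicate numbers follow the order of deposition.

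The 5 technical rows entered neither library sizes nor tests of genes. Of all reads counted, 57.0% ± 3.61 (SD, n = 32) were in no feature, 8.90% ± 1.13 had several alignments and 0.134% ± 0.0134 were ambiguous.

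edgeR 4.0.16 under R 4.3.3 fitted all gene rows (TMM scaling, filterByExpr with a minimum count of 10, total of 15 and proportion of 0.7, quasi-likelihood test, Benjamini-Hochberg threshold 0.05). The fit of block B against A used all 32 libraries, with the 2 of block C entering the scaling, the estimate of the spread and the count filter, whose smallest group they were, and the number-set fit the 16 of block B. Standard errors are the log2 difference divided by the root of F. Technical shares were tested by two-sided permutation of libraries, exact within block B and with 100000 resamples between blocks.

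Members and lists were chosen with earlier results of these data known. Named rows were the 12 with the highest summed counts, those called, TRNAM-CAU and TRNASTOP-UCA, and any with at least 5 times its median count in 1 library at 10 counts or more; pathway genes were taken from the 4 of each list with the smallest p, or were called. TRNAR-UCG and the rows named beside others of their amino acid or for their overlaps, and TRMT1L and TYW3, were picked after their values were seen. Of 25 synthetase genes and partners, some were listed under older symbols. Names and overlaps came from RefSeq's table of mChlSab1.0.hap1, of which no coordinates are printed, and no tRNA sequences were used here. On simulated counts with 100 genes changed at each size, the block fit (23977 genes) recovered 62% of log2 differences of 0.5 and 89% of 1, and the number-set fit (21488 genes) 50% and 80%. False calls were 8 of 23777 and 14 of 21288 unchanged genes. The changed genes were drawn at random from all rows tested, so these rates do not describe the thinly covered tRNA rows.

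Alternatives were RLE factors, total gene counts, all reads counted, no filter, DESeq2 1.42.0, the share of reads in no feature as a covariate, low-number libraries only, block C left out and each library left out. The fit of the number sets on all 32 libraries in 4 title groups, the summed level in low-number libraries only, and block C left out with the tested rows kept were chosen after seeing the data. Figures were drawn with matplotlib 3.10.9. A gene of the cell type marker lists is not reported here.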

Additional observations from a re-analysis of the deposited data

Results flagged for a closer look

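In the number sets of block B, the highest and lowest libraries were checked against the others for the 17 named rows, the summed level and the 3 technical shares, 42 groups in all, and 3 had a library far from the rest. The gap to the nearest library was set against Dixon's 95% critical value, which by its construction chance passes in about 1 in 20 groups. TRNAR-UCG was among the rows only because its values had been seen. TRNAK-CUU was at 0.385 CPM in replicate 29, the lowest of the 9 high-number libraries, where the next was at 1.17 CPM. TRNAL-CAA, a leucine row, was at 2.06 CPM in replicate 19, the highest high-number library, where the next was at 0.928 CPM; this is 32 counts against a median of 5 over all libraries. TRNAR-UCG was at 0.902 CPM in the same replicate 19, on 14 counts, where the next was at 0.464 CPM.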

How the results depend on the processing

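The 2 tRNA rows called between blocks A and B became 4 with total gene counts, DESeq2 or the no-feature covariate, 5 with all reads counted, 1 without the block C libraries and 0 in low-number libraries, with 17 tRNA rows tested in place of 31 in each of the last pair; TRNAP-AGG and TRNAN-GUU were not among the 17, and the 1 was TRNAR-CCU. Calls over all rows were 12.5%, and 13.7%, 14.8%, 18.5%, 13.1%, 13.7% and 5.23% in those settings in that order. Without block C on the same 31 rows, TRNAP-AGG and TRNAN-GUU were called (12.3% of all rows). Leaving out 1 library gave 1 to 4, with 1 without replicate 19, 27 or 28 and 4 without replicate 8, 16 or 25. The 10 pathway genes called between blocks A and B became 4 without a filter (7.61% of all rows called), 17 with the covariate (18.5%) and 2 in low-number libraries (5.23%), and 4 to 14 when 1 library was left out, with 4 to 6 without replicate 2, 3, 4, 7, 9, 15, 20, 21, 22, 23, 26, 28 or 29. The 0 tRNA rows called between number sets became 1 with DESeq2 and 0 to 2 when 1 library was left out, with 1 without replicate 26 and 2 without replicate 29. Other causes were not tested.

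Against all reads counted, the summed level over all libraries was 9.90 CPM and its difference between number sets 5.20, on another denominator. The difference between blocks was -2.20 CPM in low-number libraries, where the sign turned. In low-number libraries signs also turned for TRNAH-GUG (-0.090), TRNAI-AAU (-0.12), TRNAK-CUU (-0.48), TRNAR-CCU (-0.10), TRNAT-AGU (-0.35) and TRNAY-GUA (-0.33), none of them called. TRNAF-GAA became 0.016 with total gene counts and 0.036 with all reads, TRNAS-AGA 0.0087 with all reads, and TRNAG-GCC between number sets -0.0022 with total gene counts. With 1 library left out, differences between blocks ran from -0.11 to 0.046 for TRNAF-GAA, from -0.016 to 0.10 for TRNAG-GCC and from -0.18 to 0.031 for TRNAS-AGA, and between number sets from -0.015 to 0.15 for TRNAC-GCA and from -0.094 to 0.094 for TRNAG-GCC. Depth limits these values: the median row had 205 counts over 32 libraries.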
